A study of Homo sapiens with 7 samples.

Results

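Among 50857 places where the vitamin D receptor (VDR) antibody enriched DNA of THP-1 cells in at least 1 of 5 peak lists, 612 sites carried a peak in every list, with hormone and without it. They are called persistent sites here. THP-1 is a human monocytic cell line from an acute leukaemia. Cells were given 1α,25-dihydroxyvitamin D3 (1,25D) at 100 nM or only its solvent, ethanol at 0.1% (EtOH), for 8 h, and chromatin carrying VDR was pulled down with an antibody by ChIPmentation, in which a transposase attaches sequencing adapters to the precipitated fragments. No genotype, transgene or second agent is named for either group. There were 3 libraries of each treatment. The lists that chose the sites were those of 1,25D replicates 1 and 3 and of EtOH replicates 1, 2 and 3, over the range that all 5 cover in file order: chromosomes 1, 10 to 22, 2, 3 and 4 and chromosome 5 up to 90175161. A site is a run of peaks, from any of the lists, that share at least 1 bp with the next. The list of 1,25D replicate 2 took no part in the choice, and it ended on chromosome 16 at 50293713, so it serves below as a list outside the rule.

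VDR is a nuclear receptor that enters the nucleus and binds DNA mostly as a partner of a retinoid X receptor, at paired half-sites set apart by a short spacer. Its ligand changes the shape of the receptor, which then exchanges corepressor proteins for coactivators at enhancers and promoters. In monocytes, the hormone is known to raise antimicrobial and differentiation genes, and receptor found on chromatin before hormone is given is known from many cell types. Coordinates are hg19, as the lists give them, and whether starts count from 0 or 1 is not stated, which leaves each start uncertain by 1 bp. Sites are named by position. Genes near them and the bases under them are not analysed here, since the gene and promoter tables at hand were of another build, GRCh38.

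The presence of peaks chose the sites, and the fold of a peak comes from the same lists, so the folds below are a description and none of them was tested. Fold is the authors' enrichment of a peak over the background of their peak caller. At a site, the highest fold of a list was taken, and a missing peak says only that no peak passed the caller's threshold there. Persistent sites were 1.2% of all sites, whereas 46689 sites (91.8%) had a peak in a single list. Of the 669 sites with a peak in all EtOH lists, 91.5% were persistent and 15 were in neither 1,25D list. Of the 2743 sites in both 1,25D lists, 22.3% were persistent. Separate cultures are not named for the replicates, so the spread between lists may be technical. Read counts are not in the lists, and the depth behind a peak is unknown.

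The rule has an edge at the peak caller's threshold. Just outside it lay 422 sites with a peak in 4 of the 5 lists, of which 380 lacked an EtOH peak and 42 lacked a 1,25D peak. The strongest of these was chr10:6969323-6970074. Its folds were 30.7 and 31.1 after 1,25D and 5.54 and 5.10 in EtOH replicates 2 and 3, and EtOH replicate 1 had no peak there. Next came chr2:111717451-111718150, with 27.9 and 28.1 after 1,25D and 2.95 and 2.71 in the same EtOH lists. Sites can therefore be strong with the hormone and still miss the rule through 1 EtOH list. Just inside lay chr3:128323817-128324343, whose weakest peak, of fold 2.62 in EtOH replicate 3, had the highest p-value of any persistent site. The weakest p-value of a site came from an EtOH list at 573 of the 612 sites and from a 1,25D list at 39.

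Persistent sites held the strong end of the EtOH lists. In EtOH replicates 1, 2 and 3 there were 74, 87 and 75 sites with a fold of 10 or more, and every one of them was persistent. The 100 sites of highest fold in each EtOH list were persistent as well. No EtOH list gave a fold above 8.22 at any site that was not persistent. In the 1,25D lists some strong sites were not persistent. At a fold of 10 or more, 275 of 412 sites were persistent in 1,25D replicate 1 and 318 of 522 in replicate 3, and at 20 or more the numbers were 84 of 95 and 101 of 118.

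Enrichment at persistent sites was higher in the 1,25D lists, by more than the lists of a treatment differed from each other. The median fold over the 612 sites was 9.07 in 1,25D replicate 1 and 10.3 in replicate 3. It was 5.36, 5.62 and 5.46 in EtOH replicates 1, 2 and 3. The mean of these medians was 9.67 ± 0.853 after 1,25D (SD, n = 2) and 5.48 ± 0.135 after EtOH (SD, n = 3), a ratio of 1.77. Both 1,25D lists stood above every EtOH list. The quartiles of the sites ran from 5.88 to 15.2 and from 6.74 to 15.7 with hormone, against 4.17 to 7.63, 4.34 to 7.96 and 4.12 to 7.53 without. The lists of both replicates 1 hold no p-value above 0.00433, while the others reach 0.00997, so the lists were also compared within each limit. Between the replicates 1 the ratio of medians was 1.69, and between 1,25D replicate 3 and EtOH replicates 2 and 3 it was 1.86.

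**Figure D1:**
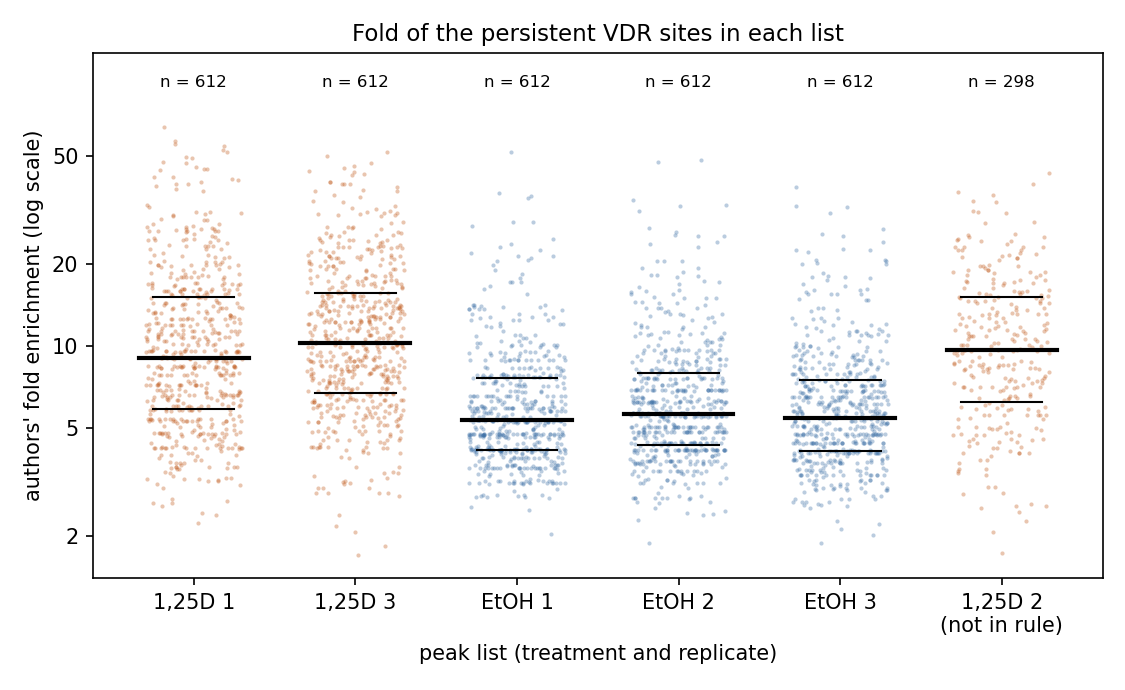
Fold enrichment of the persistent sites in each peak list, on a log scale. Points are sites, thick lines medians and thin lines quartiles, and the list at the right, 1,25D replicate 2, was not used by the rule and covers 298 of the sites; the medians of the 1,25D lists lie at 9.07 or above and those of the EtOH lists at 5.62 or below.

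The ratio between treatments ranged widely from site to site. The ratio of the mean 1,25D fold to the mean EtOH fold had a median of 1.61, with quartiles of 1.22 and 2.27, a lowest value of 0.458 and a highest of 6.0. It was 2 or more at 207 sites (33.8%), 4 or more at 18 sites and under 1 at 58 sites (9.48%). At 416 sites (68.0%) both 1,25D folds lay above all the EtOH folds, at 9 sites (1.47%) both lay below, and at 187 sites the treatments overlapped. Over all 50857 sites, with no peak counted as 0, 4.49% had both 1,25D folds above every EtOH fold and 0.0551% had both below. The rule itself requires peaks in every list, so nothing is read from these shares. Within the replicates 1, the 1,25D fold was higher at 515 sites (84.2%). The fold of 1,25D replicate 3 was above those of EtOH replicates 2 and 3 at 521 sites (85.1%). For this pair of shares no value over all sites was taken, and the rule bears on them too, so nothing is read from them either.

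Among persistent sites, those strong and weak without hormone had similar ratios, up to a fold of 20. Sites lacking a peak in any EtOH list were left out by the rule, also where the 1,25D fold was high. This bears on the ratios of the weak sites, and how far was not tested. Over the 612 sites, Spearman's rho between the mean EtOH fold and the ratio was 0.0354, while rho between the mean 1,25D fold and the ratio was 0.704. These are correlations across sites of the same lists, each fold enters the ratio, and sites are not replicates. The 246 sites with a mean EtOH fold under 5 had a median ratio of 1.60, and 33.3% of them had a ratio of 2 or more. The 298 sites from 5 to 10 had 1.70 and 35.6%, and the 51 sites from 10 to 20 had 1.56 and 31.4%. The 17 sites at 20 or more stood lower, at 1.35 and 17.6%, with a range of 0.738 to 2.33. Grouped by the 1,25D fold instead, the median ratio was 1.02 at the 75 sites under 5, 1.43 at the 238 sites from 5 to 10, 2.04 at the 212 sites from 10 to 20 and 2.80 at the 87 sites at 20 or more. In the last group the median of the mean EtOH folds was 10.5.

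**Figure D2:**
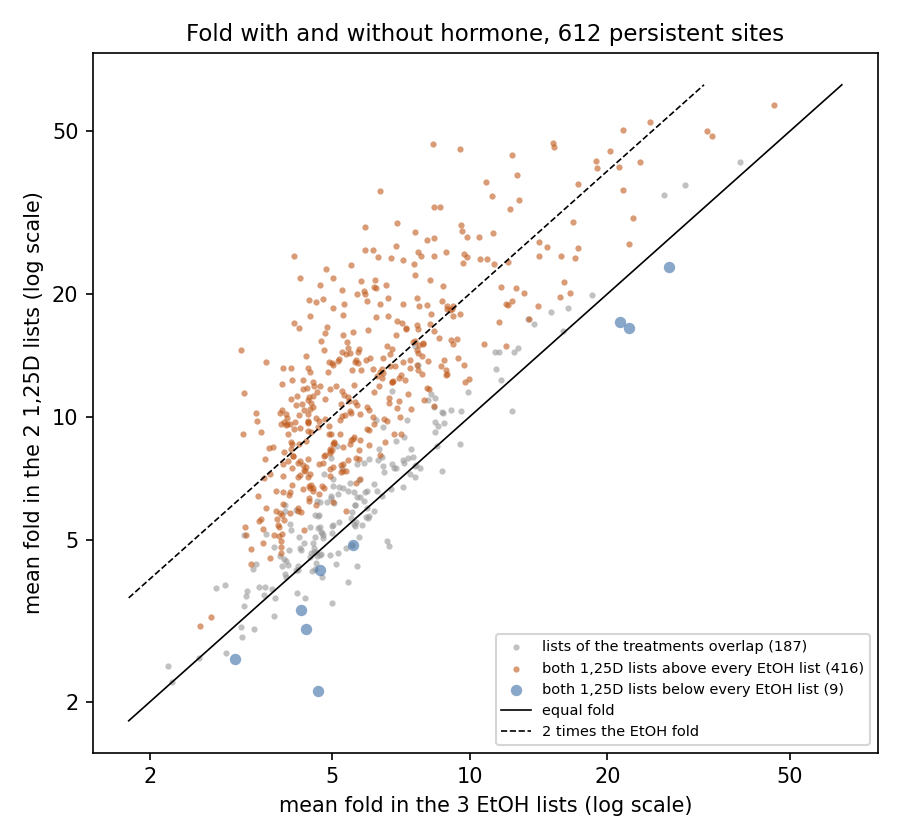
Mean fold over both 1,25D lists against mean fold over the 3 EtOH lists at each of the 612 persistent sites, on log scales. Of the sites, 416 (orange) have both 1,25D folds above every EtOH fold and 9 (large blue points) have both below, and most points lie between the line of equal fold and the dashed line of 2 times the EtOH fold or above it.

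A small core was strong in every list. The fold was 10 or more in all 5 lists at 53 sites and 20 or more in all 5 lists at 12 sites. Sites were placed by their standing, the mean over the 5 lists of a site's percentile among all sites of the list. The highest was chr1:119382943-119384860, which ranked first of the 612 in all 5 lists. Its folds were 63.8 and 51.9 with hormone and 51.7, 48.4 and 38.6 without, so the lists of the treatments nearly met. The treatments overlapped at another pair of strong sites, chr11:73966484-73968237 and chr19:18612926-18614216. The first had folds of 45.6 and 38.7 after 1,25D and of 36.8, 47.7 and 32.5 after EtOH. At the other the folds were 39.4 and 34.4 with hormone and 28.6, 34.5 and 25.5 without. The ratio of the first was 1.08, the lowest of the 10 highest-standing sites.

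The rest of the 10 highest-standing sites had every 1,25D fold above every EtOH fold. At chr2:231281025-231282338 the folds were 52.9 and 47.2 against 35.1, 33.2 and 30.8, and at chr12:26450856-26452218 they were 54.4 and 43.0 against 35.7, 32.9 and 32.8. Their ratios were 1.51 and 1.44, over high EtOH folds. The ratio was higher at chr18:75929113-75930013, with 55.3 and 50.1 against 22.6, 25.6 and 26.0, and at chr2:199770299-199771310, with 57.1 and 43.6 against 20.8, 23.3 and 20.7. Another pair on chromosome 2, chr2:226924042-226925563 and chr2:122456784-122457515, had ratios of 2.21 and 1.93. The last of the 10, chr1:175489834-175491470, had a ratio of 1.78. Within this group the ratio therefore ran from 1.08 to 2.33.

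The sites of highest ratio had EtOH folds that ran from below the EtOH medians to well above them. The highest ratio, 6.0, was at chr15:35638984-35639625, where the folds were 25.1 and 24.4 after 1,25D and 3.62, 4.35 and 4.40 after EtOH. At chr3:187529065-187529873 they were 40.4 and 30.9 against 4.72, 8.81 and 5.54. At chr2:9400532-9401765 the folds of 49.1 and 44.0 stood over 7.62, 8.89 and 8.44. In each of these sites the lowest 1,25D fold was several times the highest EtOH fold. The site chr12:93524029-93524972 had 20.4 and 23.2 against 5.95, 3.46 and 3.36, and chr1:222131067-222132552 had 45.1 and 45.4 against 9.96, 9.44 and 9.25. The list outside the rule covers 4 of the 10 sites of highest ratio and gave folds of 19.9 on chromosome 15, 23.3 on chromosome 12, and 34.2 at chr1:222131067-222132552 and 21.4 at chr1:179296748-179297560 on chromosome 1. Those folds too were above every EtOH fold of their sites. In all, 15 persistent sites had a fold of 10 or more in both 1,25D lists and under 5 in every EtOH list.

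A few sites had lower folds in both 1,25D lists, some of them by little. The 9 sites with both 1,25D folds under every EtOH fold fell into a strong and a weak set. The strong set was chr3:42053136-42054770, with 23.4 and 23.2 after 1,25D and 28.6, 26.3 and 27.0 after EtOH, chr17:39636245-39637785, with 15.2 and 17.8 against 19.1, 27.2 and 20.7, and chr1:144997264-145001001, with 17.7 and 16.4 against 20.6, 25.4 and 17.96. Their ratios were 0.854, 0.738 and 0.799. The weak set of 6 sites had folds between 1.83 and 4.89 after 1,25D. Its members were chr10:42390844-42391745, which had the lowest ratio of all persistent sites at 0.458, chr10:42598061-42598561, chr1:71439928-71440787, chr3:4769636-4770379, chr3:53380657-53381253 and chr16:70571978-70572418. At the first of them the folds were 2.44 and 1.83 with hormone and 6.25, 3.90 and 3.84 without. At the last the treatments nearly met, with 4.19 and 4.22 against 4.44, 4.97 and 4.74. In 1,25D replicate 2, which reached 4 of the 9 sites, the fold was 14.3 at chr1:144997264-145001001, 3.49 and 2.07 at the sites on chromosome 10, and 4.30 at chr1:71439928-71440787. The first 3 of these values lay under every EtOH fold of their site, and the last lay among them.

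**Figure D3:**
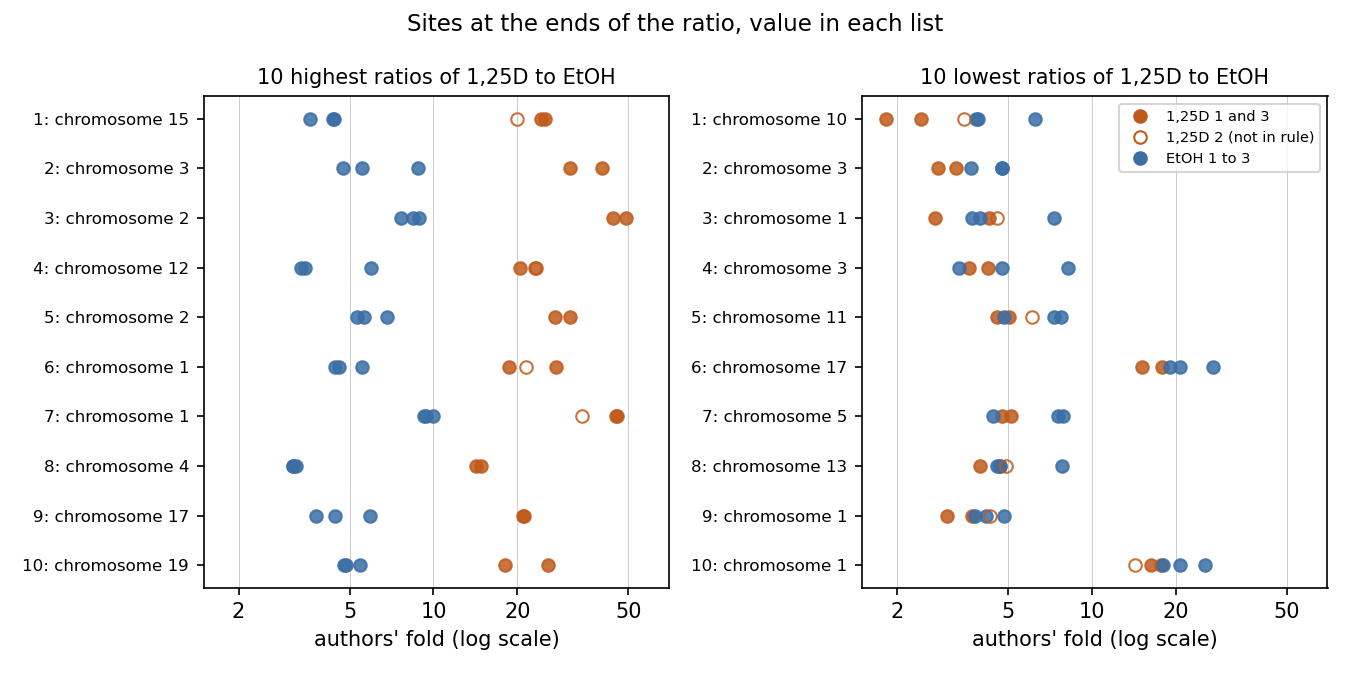
Fold in each list, on a log scale, at the 10 persistent sites with the highest (left) and the 10 with the lowest (right) ratio of 1,25D to EtOH fold, among sites whose ranks do not overlap between the treatments. Filled points are the lists used by the rule and open points are 1,25D replicate 2, where it reaches; the treatments lie apart on the left, while on the right they lie close together, with 2 sites, chr17:39636245-39637785 and chr1:144997264-145001001, far above the rest.

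Ranks within a list set aside the general difference in fold. The site of highest fold was given rank 1 in each list, and 286 sites had 1,25D ranks that lay outside the EtOH ranks, 136 sites (22.2%) ranking higher after 1,25D and 150 (24.5%) ranking lower. The ranks were taken among the 612 sites alone, so no share over a wider set of sites stands beside these. The shares were not tested. Sites that ranked higher had a median of the mean folds of 16.2 after 1,25D and 5.02 after EtOH, and those that ranked lower had 7.61 and 6.93. Sites of lower rank after 1,25D were thus not of lower fold as a group. Without EtOH replicate 1 the number with separate ranks was 480, among more sites and with fewer lists that have to be separate. Across the 612 sites the folds of both 1,25D lists had a Spearman's rho of 0.906, the pairs of EtOH lists had 0.647 to 0.742, and pairs across treatments had 0.549 to 0.683. These are descriptions over sites that share their libraries. Folds came in steps at the weak end, and in EtOH replicate 1 the 612 sites had 257 distinct values.

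The list outside the rule, 1,25D replicate 2, held nearly all persistent sites that it reached. Of the 301 persistent sites in the part that this list covers, 298 (99.0%) had a peak in it, against 7.86% of all 27600 sites of the 5 lists in that part. The share was 92.9% of 450 sites found in both 1,25D lists and in 1 or 2 EtOH lists, and 86.3% of 577 sites found in both 1,25D lists and no EtOH list. Part of this order went with strength. At a mean 1,25D fold of 6 or more, every site of all these classes was found again. Under a fold of 4, the share was 18 of 20 persistent sites, 75.3% of 77 sites with some EtOH peaks and 67.1% of 161 sites with none. From 4 to 5 it was 24 of 24 sites, 88.5% of 104 and 87.9% of 190. From 5 to 6 the order was another, with 95.8% of 24 persistent sites, 98.6% of 73 with some EtOH peaks and 97.0% of 99 with none. No test was made, since the list is 1 library and sites are not replicates.

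Folds in that list were close to those of the other 1,25D lists. Over the 298 sites the fold ran from 1.74 to 43.3, with a median of 9.71 and quartiles of 6.21 and 15.2. It was above every EtOH fold at 216 sites (72.5%), beside 215 sites for 1,25D replicate 1 and 239 for replicate 3 over the same sites. It was below every EtOH fold at 21 sites, beside 21 and 9. The median ratio to the mean EtOH fold was 1.57, beside 1.54 and 1.67. All of these comparisons share the EtOH lists, whose peaks the rule required. The same shares over all sites of that part were not taken, so nothing is read from these counts. Over these sites Spearman's rho with the 1,25D lists was 0.916 and 0.924, and with the EtOH lists 0.557, 0.543 and 0.654. The 3 sites with no peak in it were chr1:40928830-40929285, chr1:43447987-43448578 and chr10:62871101-62871442. The first and the second are among the 5 lowest-standing persistent sites, and the third had folds of 5.41 and 4.89 with hormone and of 4.17, 4.15 and 3.36 without.

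Persistent sites were broad. Their merged length had a median of 729.5 bp, with quartiles of 578 and 933 bp, a shortest of 241 bp and a longest of 3737 bp, and 130 sites (21.2%) were 1 kb or longer. Merging over more lists lengthens a site, so length was also read in 1 list at a time. In 1,25D replicate 2, at a fold of 8 to 12, the strongest peak of a persistent site had a median length of 703 bp (78 sites). At sites of both 1,25D lists it was 539.5 bp with some EtOH peaks (72 sites) and 523 bp with none (50 sites). At a fold of 6 to 8 the medians were 625.5, 460.5 and 459.5 bp, and at 4 to 5 they were 485, 340 and 338 bp. At the same fold in a list that did not choose them, persistent sites had longer peaks in each of these bands. The rule asks for overlapping peaks in all 5 lists and may itself favour long peaks. Reading another list does not remove this, and it was not tested. The quartiles overlapped between classes. At 8 to 12 they were 592 and 813 bp for persistent sites, 459.5 and 654.5 bp with some EtOH peaks and 458 and 595 bp with none.

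**Figure D4:**
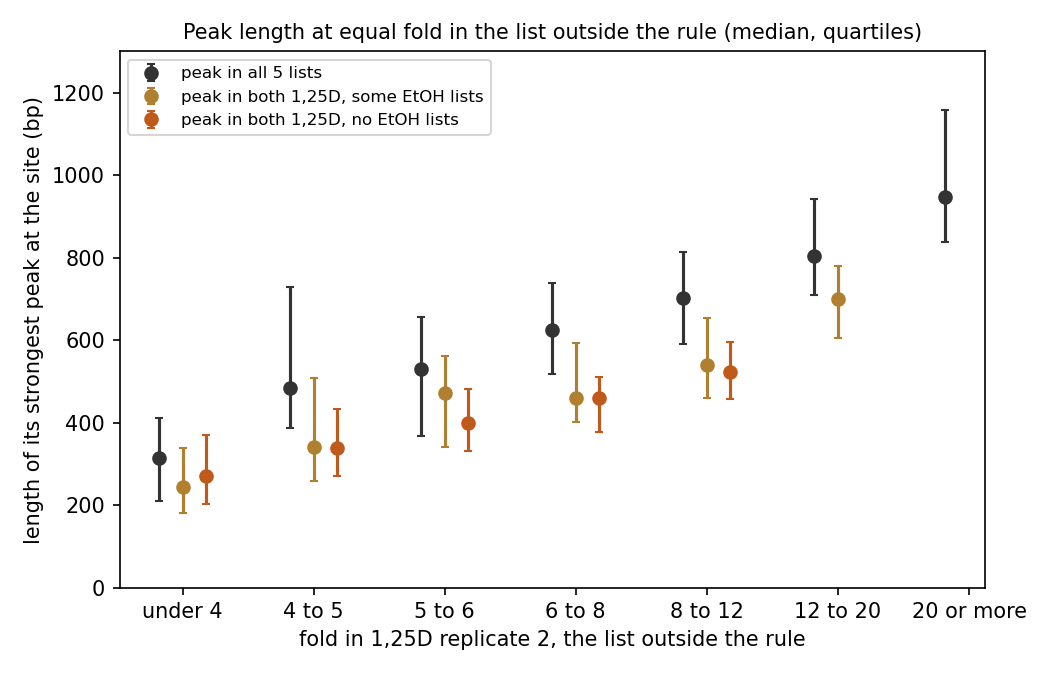
Length of the strongest peak in 1,25D replicate 2, the list outside the rule, by its fold and by class of site. Points are medians and bars quartiles, for classes with at least 20 sites in a band. Persistent sites (dark points) have the highest median in each band where another class is drawn. An example is 703 bp at a fold of 8 to 12, against 523 bp for sites with no EtOH peak. At a fold of 20 or more only persistent sites are drawn, at 948 bp. Sites with some EtOH peaks, not drawn there, had 1153 bp over 2 sites.

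Grouped by EtOH fold, peaks covered more of a weak site with hormone than without, but less at most of the sites with the highest EtOH folds. The median covered length of a persistent site was 547.5 and 620 bp with hormone and 368.5, 406.5 and 461 bp without. Both 1,25D lists covered more than every EtOH list at 272 sites (44.4%) and less than every EtOH list at 25 sites (4.08%). Over all sites, with no peak counted as 0, these shares were 4.1% and 0.0924%, and the rule bears on them too. At the sites with a mean EtOH fold under 5 the median covered length was 465.5 bp after 1,25D and 297 bp after EtOH. At 5 to 10 it was 629.75 and 481 bp. At 10 to 20 the lengths were close, at 804.5 and 817 bp, and the EtOH mean was the longer at 17 of 51 sites. At 20 or more the order was the opposite, with 950 bp and 1205 bp, and the EtOH mean was the longer at 11 of these 17 sites. These bands are of EtOH fold only, and merged length rose with the mean EtOH fold (Spearman's rho of 0.499). Such bands can by themselves favour long EtOH cover at the top and short EtOH cover at the bottom. Nothing is therefore read from the change of order. The 25 sites with shorter cover after 1,25D had a median EtOH fold of 9.75 and a median 1,25D fold of 16.5, and 13 of them had both 1,25D folds above every EtOH fold. The widest contrast was chr1:144997264-145001001, the longest persistent site, where peaks covered 1072 and 1827 bp with hormone and 3585, 3411 and 3373 bp without. It lay 68470 bp before the second longest, chr1:145069471-145072189, of 2718 bp, whose folds were 14.2 and 15.3 with hormone and 12.1, 14.4 and 11.7 without.

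The peaks of a site lay about as far apart across treatments as between EtOH lists, and further apart than between the 1,25D lists. The rule joins peaks that overlap, so the closeness of their centres was in part set by it and was not tested. The centres of the strongest peak in both 1,25D lists were a median of 52.5 bp apart. For pairs of EtOH lists this was 61.8 to 69.5 bp, and for pairs across treatments it was 56.5 to 71.5 bp. The centres lay within 100 bp of each other at 63.2% to 72.9% of sites in pairs across treatments, at 63.7% to 68.8% in pairs of EtOH lists and at 76.0% in the pair of 1,25D lists. A single peak in each list made up 377 sites (61.6%). Sites with several peaks numbered 75 and 41 in 1,25D replicates 1 and 3, and 86, 109 and 84 in EtOH replicates 1, 2 and 3.

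Persistent sites were found on all 18 chromosomes of the range, from 11 on chromosome 21 to 115 on chromosome 1. As a share of all sites they were densest on chromosome 19 (4.81% of 645 sites), chromosome 22 (3.29% of 426) and chromosome 20 (2.84% of 775), and sparsest on chromosome 4 (0.732% of 4779) and chromosome 18 (0.802% of 1746). Most sites of any chromosome are peaks of a single list, so the share was also taken of the sites in both 1,25D lists. It then ran only from 17.2% on chromosome 12 to 27.2% on chromosome 20, with 24.6% on chromosome 19 and 18.2% on chromosome 18. The median ratio of 1,25D to EtOH fold was between 1.48 and 1.78 on 16 of the chromosomes. It was 2.20 on chromosome 14, over 25 sites, and 2.24 on chromosome 21, over 11 sites. The ratio was under 1 at the lowest site of every chromosome.

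**Figure D5:**
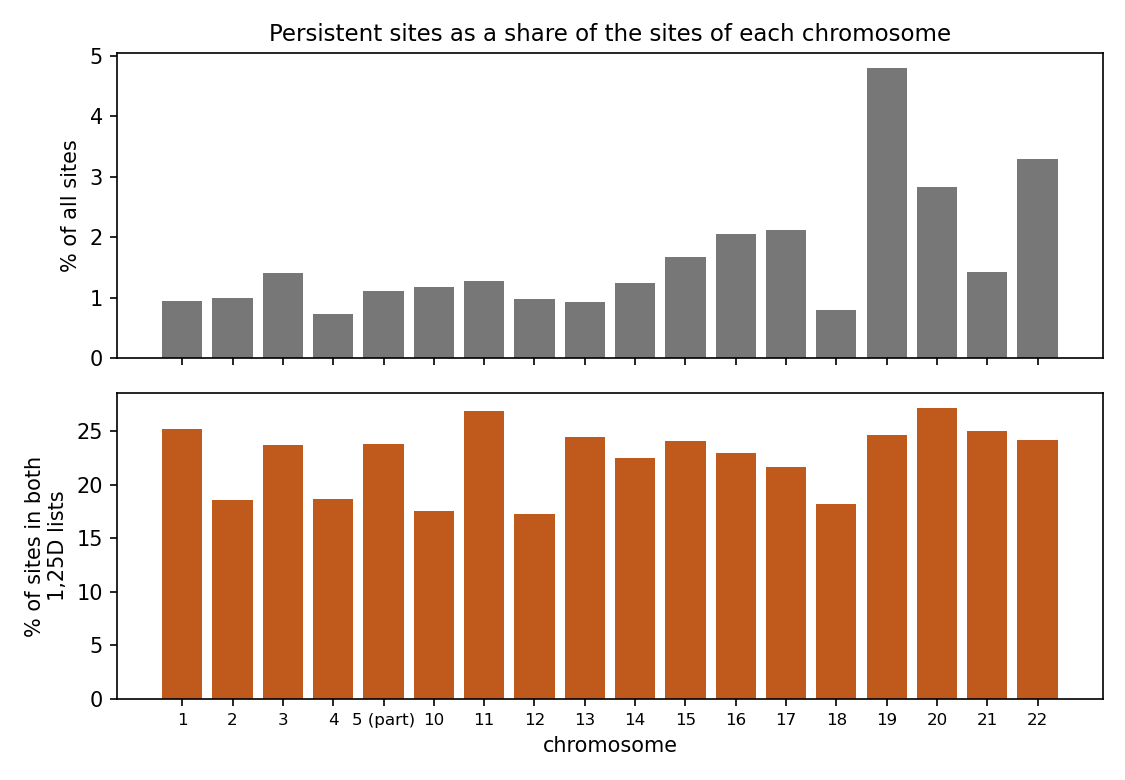
Persistent sites as a percentage of all sites (top) and of the sites with a peak in both 1,25D lists (bottom), by chromosome. The upper bars run from 0.732% on chromosome 4 to 4.81% on chromosome 19, and the lower bars only from 17.2% to 27.2%; chromosome 5 is covered in part.

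The sites mostly stood alone. The gap to the nearest other persistent site had a median of 826870 bp, and 69 sites (11.3%) had another within 100 kb. Of the 1204 sites in both 1,25D lists and no EtOH list, 27.8% had another of their kind within 100 kb. The classes differ in number, and the part of number in this was not tested. A site of that hormone-only class lay within 100 kb of 154 persistent sites (25.2%) and within 10 kb of 39. In 4 groups of 153 persistent sites, from the lowest ratios to the highest, the share within 100 kb of one was 22.2%, 18.3%, 29.4% and 30.7%. Among the 10 sites of highest ratio, the gap to one ran from 207 bp at chr1:222131067-222132552 to 4090674 bp at chr15:35638984-35639625. The closest pair of persistent sites was chr16:85726396-85726862 and chr16:85726880-85727372, which are 18 bp apart and differed in fold. The mean folds were 4.06 after 1,25D and 4.76 after EtOH at the first, and 13.0 and 5.54 at the other. The next closest were chr1:40508359-40508946 and chr1:40509077-40509318, 131 bp apart, and chr1:31918571-31919280 and chr1:31919421-31920190, 141 bp apart. At the last pair the mean folds were 14.7 and 16.5 after 1,25D and 5.42 and 4.89 after EtOH.

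One stretch of chromosome 1 stood out for its number of persistent sites and for their low fold, though some other windows held a higher share. Of 424 windows of 5 Mb with a site, 301 held a persistent site. The window from 40 to 45 Mb held 16 among 372 sites, against 7 among 276 sites in the next by number. That share was above the 0.952% of all sites on chromosome 1 and the 1.2% over the range. Other windows held a higher share, such as 6 of 36 at 85 to 90 Mb of chromosome 16 and 6 of 84 at 65 to 70 Mb of chromosome 15. The 16 sites of the window on chromosome 1 had a median of the mean folds of 4.58 after 1,25D and 4.08 after EtOH, and a median ratio of 1.19. All 5 of the persistent sites with the lowest standing were in it, at chr1:40928830-40929285, chr1:40508359-40508946, chr1:41176579-41177301, chr1:40341153-40341693 and chr1:43447987-43448578. The lowest of them had folds of 2.40 and 2.08 with hormone and of 2.56, 1.89 and 2.27 without, in which the treatments overlapped. The window also held sites of mean fold up to 16.2 after 1,25D and 8.49 after EtOH. By p-value its peaks were not weak in the EtOH lists. In EtOH replicates 1, 2 and 3 their median p-values were 3.09e-09, 1.57e-10 and 4.52e-09, against 4.58e-08, 1.24e-08 and 1.21e-08 at the 596 persistent sites elsewhere. In 1,25D replicates 1 and 3 they were 1.07e-11 and 6.71e-17, against 2.58e-17 and 1.58e-20 elsewhere. At folds of 4 to 5 in EtOH replicate 3, the median p-value was 7.03e-15 at 3 sites of the window and 6.61e-06 at 132 sites elsewhere. These are the authors' p-values of single peaks. In each of the other lists too, the median p-value at folds of 4 to 5 was lower in the window, over 1 to 3 sites.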

How the data were processed

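Peak lists of 6 VDR ChIPmentation libraries were used. Per the submitters' processing notes, the tools were Bowtie 1.1 and MACS2 and the build was hg19 (GRCh37). How they were set, how the input served and whether duplicates were removed is not given in the sources used here. A peak has a fold, a ratio over background, and a p-value, both deposited by the authors, per the file headers. As used here 3 lists ended in mid-line, and that line was left out.

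Peaks sharing at least 1 bp were merged with Python 3.11.15 and pandas 2.3.3. A list's fold at a site is its highest there. Folds were ranked within a list, and given side by side with no test, as the rule used the same lists. Standing is the mean over the 5 lists of a site's place among all sites of each. Named sites are the 10 of highest standing, the 10 of highest and the 10 of lowest ratio among those with separate ranks, the 5 of lowest standing, the 5 longest, the 3 closest pairs and those missing from 1,25D replicate 2. The sites with both 1,25D folds under every EtOH fold, and those at the edge of the rule, were named after their values were seen. The members, lists and rules were chosen with earlier results of these data known. Merging was tested on simulated lists. Alternatives were other peak limits, overlaps and distances, left-out lists and left-out chromosome 1, and, added after seeing the data, its densest window. Peaks on chromosome 1 reached 249239892, past the last gene of the GRCh38 table at 248937099, so no gene or base was read. Columns of other samples numbered 0.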

Additional observations from a re-analysis of the deposited data

How the results depend on the processing

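Under every alternative run the ratio of median folds stayed within 1.66 to 1.85. The share found again in 1,25D replicate 2 stayed within 97.4% to 99.6%. The ratio moved by less than 0.127, the SD of the ratios between single lists, in which each list recurs. The share stayed inside 97.1% to 99.8%, a 95% binomial interval over sites. Sites are not replicates, so both limits are only yardsticks for the settings. Within the replicate numbers that both treatments have (1 and 3), the ratio in this replicate block was 1.79. The deviations of same-numbered lists had a correlation of 0.0840 over 612 sites. Those sites share their libraries, so this value cannot tell whether the numbers mark pairs or batches. The lists of both replicates 1 also share a lower limit of p-value than the others. The number of sites was 237 with peaks of fold 5 or more and 301 in the first part of the lists, and 622 to 818 without 1 list. Sites with separate ranks numbered 129 and 150 under these settings in turn and 375 to 480 without 1 list, where fewer lists have to be separate. The share within 100 kb of another persistent site was 6.75% at fold 5 or more, 8.45% without chromosome 1 and 11.7% to 15.5% without 1 list. It was 5.72% at 50 kb and 19.1% at 200 kb. Alternatives for gene starts and motifs were not run, as no hg19 genome or annotation was used here. No read counts are at hand, so no interval for a fold can be given.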

Other observations

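Beyond the range of the rule, from the rest of chromosome 5 to chromosome X, 3 lists go on to the end: 1,25D replicate 1 and EtOH replicates 1 and 2. There 291 of 23581 sites (1.23%) had a peak in all 3, with median folds of 8.41 after 1,25D and of 4.76 and 5.03 after EtOH. The ratio of the 1,25D fold to the mean EtOH fold had a median of 1.52 (quartiles 1.13 and 2.30). For the 707 sites of the same lists within the range it was 1.45 (1.08 and 2.10). The 1,25D fold was above both EtOH folds at 76.6% of the sites and below both at 8.93%, beside 71.9% and 10.6% within the range. Both sets were chosen by peaks in all 3 lists. The same shares over all 23581 sites were not taken, so nothing is read from these. At a fold of 10 or more, all 30 sites of EtOH replicate 1 and all 41 of replicate 2 had a peak in all 3 lists, against 120 of 191 sites of 1,25D replicate 1.

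At the 5 sites of highest mean rank over these lists, chosen after their values were seen, the fold ran from 28.5 to 65.3 after 1,25D, from 23.3 to 45.6 in EtOH replicate 1 and from 29.9 to 50.6 in EtOH replicate 2. Their ratios ran from 1.04 to 1.79. With 1 list after 1,25D, these values have no replicate.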
